A study of Saccharomyces cerevisiae with 14 samples.

Results

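The 4 strongest Sef1-TAP binding sites of budding yeast, upstream of ISA1, IDH2, IDH1 and ACO1, were surrounded by weaker peaks, and these flanking peaks are described here. A peak was included when its position lay more than 500 bp and at most 25 kb from 1 of the 4 centers, which are at position 87026 of chromosome XII (ISA1), 579883 of chromosome XV (IDH2), 559392 of chromosome XIV (IDH1) and 737888 of chromosome XII (ACO1). This gave 261 of the 3812 peaks in the 7 deposited lists. The centers had been chosen for the height of their peaks in these lists, so that height is given as a description, with no test. In YPD they had the 4 highest mean enrichments of the sites called in all lists. In YPGly a site upstream of HAP4 (243), which encodes a transcription factor of respiratory genes, exceeded 3 of them. The site at YGR067C (173.9) was above IDH1 (128) and slightly above ACO1 (173.4), and that at COR1 (138) was above IDH1.

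Sef1 is a zinc cluster transcription factor that recognizes CGG triplets. Chromatin immunoprecipitation followed by sequencing (ChIP-seq) had been carried out in a W303 strain of Saccharomyces cerevisiae (W303ScSef1TAPNB1-1) whose chromosomal SEF1 carried a TAP tag (SEF1-TAP::FRT), so that every sample holds the tagged protein. The strain was of mating type MATa and carried mutant marker alleles of ADE2, CAN1, HIS3, LEU2, TRP1 and URA3. Cells had been grown for 4.5 h at 30 °C in glycerol medium (YPGly, a respiratory carbon source; 3 repeats, harvested at 0.4 OD600 per ml, 500 OD600 units of cells) or in glucose medium (YPD, a fermentative carbon source; 4 repeats, 1.0 OD600 per ml, 1500 OD600 units of cells immunoprecipitated in portions that were pooled). The amount of cells differed between the media and cannot be told apart from the medium, and YPGly repeat 3 had been sequenced separately with paired ends. All samples came from 1 strain, and an untagged strain was not analysed here.

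ISA1 encodes a mitochondrial protein of iron-sulfur cluster assembly, ACO1 encodes aconitase, and IDH1 and IDH2 encode the subunits of the NAD-dependent isocitrate dehydrogenase of the tricarboxylic acid cycle. tRNA genes are short, are transcribed by RNA polymerase III and contain their promoter elements, the A box and the B box, within the gene. Yeast tRNA genes occur in families of identical copies spread over the chromosomes.

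The sequences below are those of the flanking sites that the results turn on. They were read from the S288C reference genome (assembly R64), not from W303, and are written 5′ to 3′. Among the sites with 3 calls, the highest mean enrichment of the IDH1 neighbourhood in either medium was at a site that overlapped a tRNA gene, YNCN0010C. Its peak positions, 560784 to 560789, lay just outside the gene, which spans 560693 to 560765. In the ACO1 neighbourhood in YPD, a tRNA gene (7.82) and the YLR297W/ATP14 site (7.79) were level, and the site upstream of MET17 lay on another tRNA gene. In these 3 sequences the capitals mark the tRNA gene.
YNCN0010C, tRNA-Thr, chrXIV:560673-560785, minus strand: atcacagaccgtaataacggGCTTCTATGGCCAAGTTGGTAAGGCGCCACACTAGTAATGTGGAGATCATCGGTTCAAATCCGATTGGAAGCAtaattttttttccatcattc
YNCL0038W, tRNA-Ile, chrXII:734782-734895, plus strand: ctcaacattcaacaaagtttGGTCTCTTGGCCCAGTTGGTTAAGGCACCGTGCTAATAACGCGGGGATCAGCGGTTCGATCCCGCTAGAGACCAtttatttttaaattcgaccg
YNCL0037W, tRNA-Leu upstream of MET17, chrXII:732070-732210, plus strand: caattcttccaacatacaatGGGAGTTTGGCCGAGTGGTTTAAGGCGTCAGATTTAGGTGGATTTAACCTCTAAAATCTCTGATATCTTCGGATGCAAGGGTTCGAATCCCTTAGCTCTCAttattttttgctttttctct

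The flanking sites with 3 calls that had the highest mean enrichment of the ISA1 and IDH2 neighbourhoods, upstream of TPO1 and BAG7, are shown with every CGG or CCG triplet in capitals, because they hold several such triplets without a CCGN5CGG match. Each stretch surrounds the middle of the merged site. At BAG7 that is position 578039, where no list had its peak. The YPGly peaks there were at 578096 to 578121, and only that of repeat 3, at 578096, lay inside the stretch. The main YPD peaks, at 577855 to 577874, lay outside it.
TPO1, chrXII:84223-84343, plus strand: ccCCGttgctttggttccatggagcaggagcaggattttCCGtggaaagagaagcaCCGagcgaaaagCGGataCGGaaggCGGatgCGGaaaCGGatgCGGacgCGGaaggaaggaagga
BAG7, chrXV:577979-578099, plus strand: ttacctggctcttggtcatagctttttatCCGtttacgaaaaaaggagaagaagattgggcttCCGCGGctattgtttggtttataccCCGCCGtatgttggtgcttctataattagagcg

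The 3 flanking sites with a match to CCGN5CGG, the pair of CGG triplets on opposite strands that the study describes for Sef1, are shown next to the match at the IDH1 center. The triplets of the match are in capitals.
YLR297W/ATP14, chrXII:723481-723531, plus strand: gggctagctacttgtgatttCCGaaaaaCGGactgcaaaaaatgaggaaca
MRPL15/ATG39, chrXII:759191-759241, plus strand: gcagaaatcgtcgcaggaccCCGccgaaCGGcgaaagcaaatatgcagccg
RUP1, chrXV:586072-586122, plus strand: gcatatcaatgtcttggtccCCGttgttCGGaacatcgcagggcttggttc
IDH1 center, chrXIV:559347-559397, plus strand: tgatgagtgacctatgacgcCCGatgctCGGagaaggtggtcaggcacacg

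The YPGly lists held 25, 26 and 27 flanking peaks in repeats 1 to 3, out of 520, 373 and 395 peaks, and the YPD lists held 41, 56, 43 and 43 in repeats 1 to 4, out of 528, 771, 615 and 610. Every YPD list held more flanking peaks than every YPGly list. As shares of their lists they lay closer, at 4.81, 6.97 and 6.84% in YPGly and 7.77, 7.26, 6.99 and 7.05% in YPD. The value given for a peak is its enrichment, the authors' fold of ChIP over input at the peak within 1 list. The centers had mean enrichments of 128 to 245 in YPGly and 239 to 314 in YPD, while the flanking peaks ranged over 1.23 to 23.5 in the YPGly lists and 1.14 to 14 in the YPD lists. The score, the peak caller's own measure, had a median of 589, 387 and 623 over the flanking peaks of YPGly repeats 1 to 3 and of 321, 148, 280 and 250 over those of YPD repeats 1 to 4, against whole-list medians of 544, 425 and 686 in YPGly and of 356, 161, 254 and 250 in YPD. The lists give no read number for a library or a peak, so the counting error of a peak cannot be had from them, and errors are the SD between repeats.

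Merging all intervals of the 7 lists that shared at least 1 bp gave 73 flanking sites out of 1066. Of these, 43 were called in at least 3 repeats of a medium, out of 645 such sites in the genome. The remaining 30 had fewer calls. They were seen in a single list in 23 cases, 12 of them in YPD repeat 2, the longest list, and 29 of the 30 had a YPD call. The 43 sites were spread over the neighbourhoods of ISA1 (12 sites), IDH2 (11), IDH1 (8) and ACO1 (12).

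The limits of the rule cut through few peaks. The nearest peak outside the inner limit was a center itself in each neighbourhood, 7, -6, -5 and -13 bp from the stated positions of ISA1, IDH2, IDH1 and ACO1. The nearest inside it around IDH2 was at -534 bp in YPGly repeat 3 (enrichment 5.56), and in the other neighbourhoods it was at -850 bp from ACO1 (9.29, YPD repeat 1), -875 bp from ISA1 (3.43, YPD repeat 2) and -900 bp from IDH1 (4.56, YPD repeat 3). At the outer limit, the farthest peak inside lay -24561 bp from ACO1 (1.30, YPD repeat 2) and the nearest outside -25343 bp from it (1.59, YPD repeat 2). Negative distances are toward the left end of the chromosome.

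**Figure D1:**
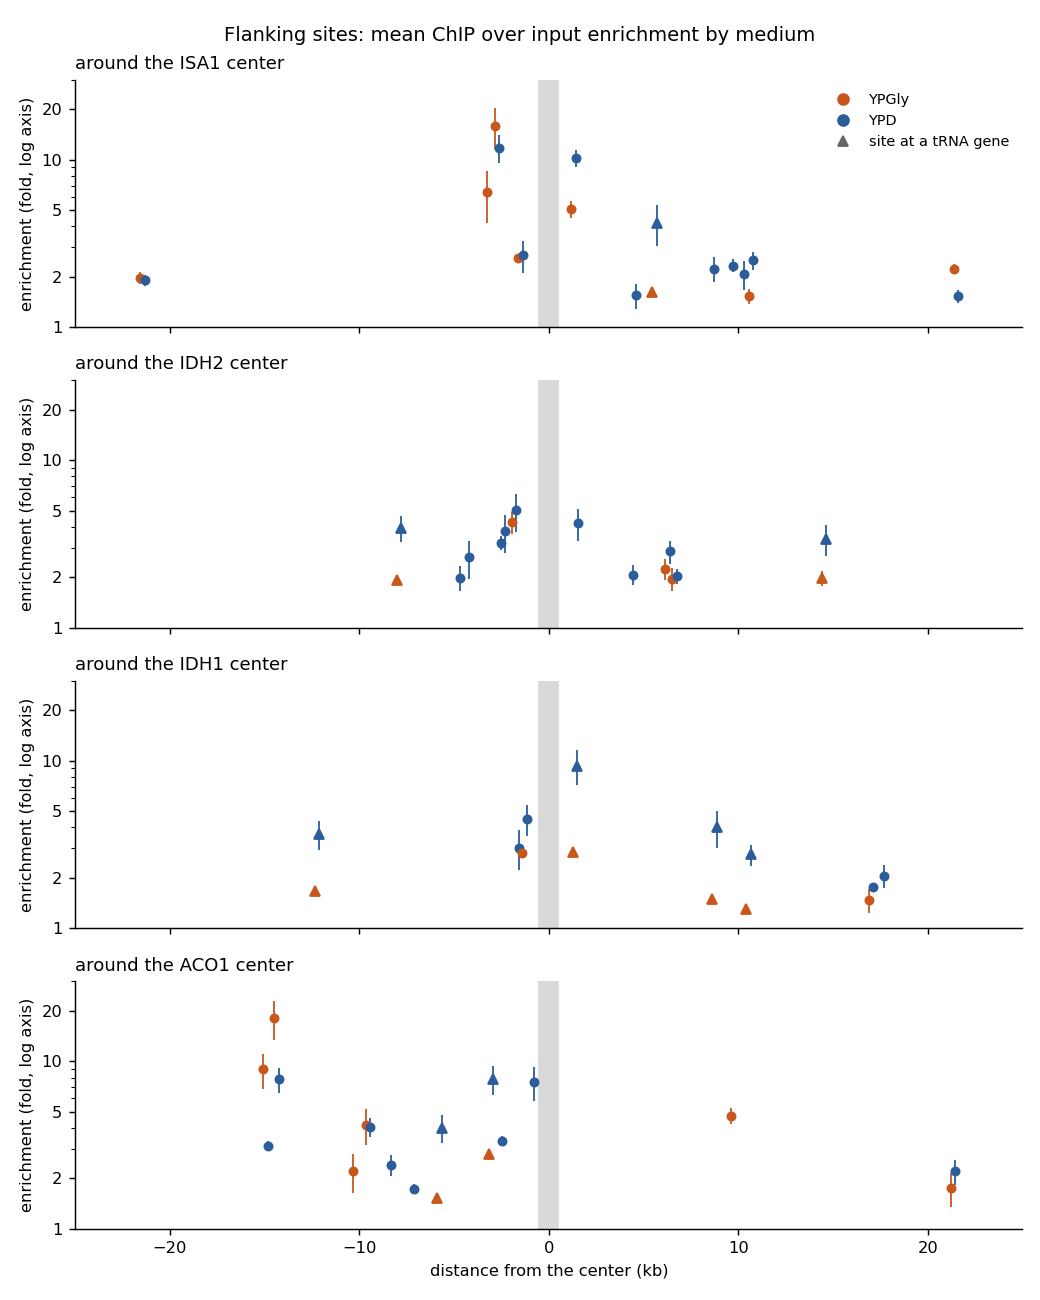
Mean enrichment (fold of ChIP over input, log axis) of the 43 flanking sites called in at least 3 repeats of a medium, plotted by distance in kb from the center of each neighbourhood. Orange symbols are YPGly and blue symbols are YPD, triangles are sites at tRNA genes, bars are the SD over the lists that called the site, and the gray band is the 500 bp left out on either side of the center. At every triangle the YPD value is above the YPGly value.

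Flanking sites were more often shared by the media, or seen in YPD, than seen in YPGly alone. Of the 43 sites, 19 had at least 3 calls in each medium, 5 had them in YPGly only and 19 were YPD only. Among all 645 sites, 48.4% were YPD only, 34.9% were shared and 16.7% were YPGly only, so the 19 YPD-only sites, 44.2% of the 43, stood near the share in the genome. No YPGly list called 16 of the 19, and no YPD list called 3 of the 5. The number of YPD-only sites rested on the number of YPD lists. It was 10 without YPD repeat 1, without repeat 2 or without repeat 3, when all of the lists left had to call the site, and 14 without repeat 4, and it was 8 with calls required in every list of a medium and 6 with lists of equal length.

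The sites fell into 3 kinds of location. A tRNA gene overlapped 9 of the 43 sites, a coding sequence held the center of 16 and 17 lay upstream of a gene without either, with 1 site elsewhere. Over all 645 sites, 31.0% overlapped a tRNA gene, 18.1% lay in coding sequences and 48.8% were upstream. The grouping by location was made after the values were seen.

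All 9 tRNA genes in the 4 neighbourhoods held a site, against 205 of 275 nuclear tRNA genes (74.5%) in the genome. They encode tRNA-Thr, tRNA-Leu, tRNA-Asp, tRNA-Gly, 2 tRNA-Ile and 3 tRNA-Pro. All 9 were called in every YPD list, and 7 of the 9 in every YPGly list too, while of the 200 sites at tRNA genes in the genome 24 (12.0%) were called in both media and 174 (87.0%) in YPD only. The sequence GTTCNANNC, a form of the B box, was searched on either strand in the 250 bp centered on each site. It was present at all 9 of these sites, at 97.0% of the 200 sites and at 10.1% of the 445 sites elsewhere.

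At the tRNA gene sites the enrichments as deposited were lower in YPGly than in YPD. YNCN0010C, the tRNA-Thr gene at +1392 bp from the IDH1 center, had enrichments of 2.80, 2.85 and 2.92 in YPGly repeats 1 to 3, against 12.1, 6.80, 8.82 and 9.74 in YPD repeats 1 to 4. YNCL0038W, a tRNA-Ile gene at -3048 bp from the ACO1 center, had 2.76, 2.57 and 3.02 in YPGly, against 9.69, 6.19, 7.09 and 8.32 in YPD. The scores of the tRNA-Thr gene were 589, 584 and 805 in YPGly, against 3746, 1777, 2674 and 2450 in YPD. At both genes every YPGly value was below every YPD value, with means of 2.86 ± 0.06 (SD, n = 3) in YPGly and 9.36 ± 2.2 (SD, n = 4) in YPD at the tRNA-Thr gene.

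The site assigned to MET17 was a tRNA gene site of the same kind. MET17 encodes the O-acetylhomoserine sulfhydrylase of methionine synthesis. The site (chrXII:731983-732251) was centered -425 bp from its start codon and overlaps YNCL0037W, the tRNA-Leu gene printed above, at -5771 bp from the ACO1 center. Its enrichments were 1.63, 1.48 and 1.48 in YPGly, against 4.93, 3.23, 3.55 and 4.34 in YPD. Its scores were 437, 308 and 499 in YPGly, against 1684, 635, 1180 and 953 in YPD. The media did not overlap there by either measure. Within the MET17 coding sequence, at -4362 bp, a single YPD list had a peak (1.67). Of 28 genes of sulfur amino acid synthesis, uptake and regulation, 3 (10.7%) had an assigned site anywhere in the genome, against 12.2% of 6008 protein-coding genes, and MUP1 and MET4, the other two, lie outside the 4 neighbourhoods.

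The other tRNA gene sites had lower values in the same order of media. YNCN0011W (tRNA-Pro, +8754 bp from IDH1) had 1.49, 1.42 and 1.57 in YPGly, against 5.31, 2.87, 3.85 and 4.03 in YPD. YNCO0019W (tRNA-Asp, -7903 bp from IDH2) had 2.10, 1.83 and 1.88 in YPGly, against 4.81, 3.30, 3.51 and 4.24 in YPD. YNCO0020C (SUF5, tRNA-Gly, +14519 bp from IDH2) had 2.17, 1.77 and 2.01 in YPGly, against 4.30, 2.59, 3.17 and 3.56 in YPD. No YPGly value reached a YPD value at these genes.

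At YNCN0012C (tRNA-Ile, +10537 bp from IDH1), the weakest of the 9 in both media, the values were 1.36, 1.33 and 1.23 in YPGly, against 3.22, 2.26, 2.83 and 2.71 in YPD. Fewer than 3 YPGly lists called the other 2 tRNA-Pro sites. YNCN0009W (-12245 bp from IDH1) had 1.63 and 1.69 in the 2 YPGly lists that called it, against 4.65, 2.90, 3.40 and 3.65 in YPD. YNCL0001W (+5566 bp from ISA1) had 1.62 in a single YPGly list, against 5.69, 3.03, 3.68 and 4.38 in YPD.

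Among the tRNA gene sites with a call, those near the 4 centers were spread over the range in YPGly and stood at its top in YPD. In YPGly all 9 had a call, against 49 of the 191 others, and a site without a call has no value to compare. In YPGly their mean enrichments were 1.31 to 2.86 (median 1.66), against 1.13 to 5.55 (median 1.44) at the 49 other tRNA gene sites with a YPGly call. In YPD they were 2.76 to 9.36 (median 4.01), against 1.20 to 2.86 (median 1.60) at the 190 others with a YPD call. In YPD the 9 held ranks 1 to 8 and 10 by mean enrichment. They were among the 10 highest in each of the 4 YPD lists separately, and in each YPGly list 2 or 3 of them were.

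The same order was seen with the score. The 9 sites had mean scores of 619 to 2662 in YPD, and the other tRNA gene sites at most 469. Without YPD repeat 3, 8 of the 9 remained among the 10 highest means, and without each of the other YPD repeats all 9 did. This comparison was chosen after the values were seen, and the 9 sites were selected by their distance to centers that were themselves chosen for their height in these lists.

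Enrichment at these tRNA genes decreased with distance from the centers in YPD. The tRNA-Thr gene at 1392 bp and the tRNA-Ile gene at 3048 bp had means of 9.36 and 7.82, the genes at 5566 to 8754 bp had 3.96 to 4.2, and those at 10537 to 14519 bp had 2.76 to 3.65 (Spearman correlation -0.90 across the 9 sites, a description, since the sites share libraries). In YPGly the correlation was -0.40. Farther out on the same chromosomes, the 3 tRNA gene sites at 25 to 50 kb had YPD enrichments of 1.24 to 2.37, and the 22 sites beyond 100 kb had 1.42 to 2.28. On other chromosomes, 157 sites ranged over 1.20 to 2.86. Around the next 16 strongest sites, 13 tRNA gene sites within 25 kb had a median YPD enrichment of 1.84, with a range of 1.46 to 2.45.

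Identical copies of the same tRNA genes outside the neighbourhoods had lower values in YPD. Reads within a gene that has identical copies cannot be placed with certainty, so values at such genes are uncertain to that degree. Of the 9 genes, 7 had identical copies elsewhere in the genome, and 6 had such a copy with a site outside the neighbourhoods. The tRNA-Thr gene had 10 copies, 7 of them with a site, and their YPD means were 1.43 to 1.82, against 9.36 near IDH1. The 7 copies of the tRNA-Ile gene with a site had 1.44 to 2.61, against 7.82 near ACO1 and 2.76 near IDH1, and the 10 such copies of the tRNA-Asp gene had 1.42 to 2.16, against 3.96 near IDH2. In YPD all 6 members were above each of their copies. In YPGly few copies had a call, and YNCN0012C (1.31) was below the single copy of its tRNA-Ile gene with one (1.74).

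**Figure D2:**
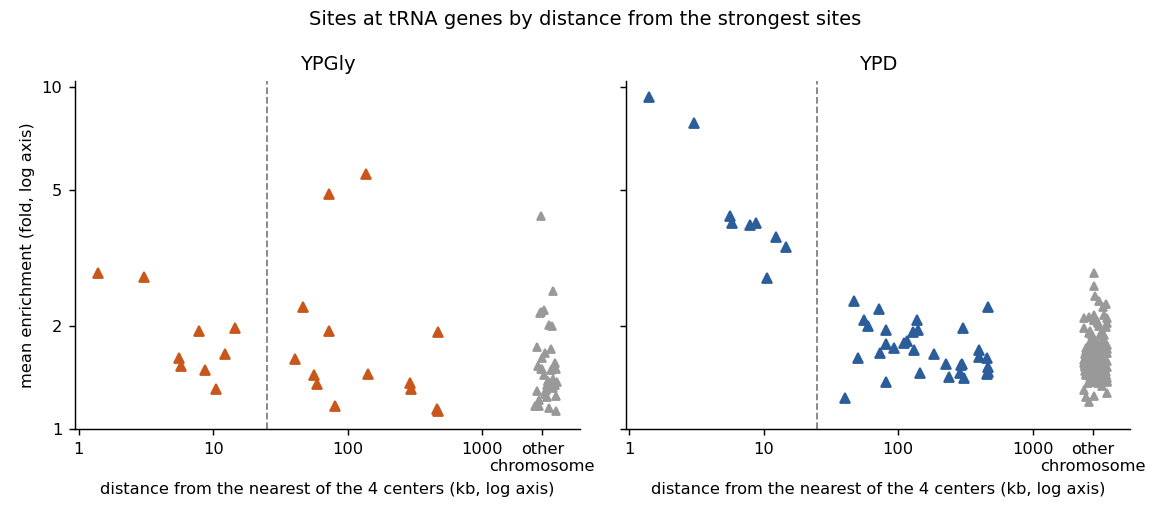
Mean enrichment (fold, log axis) of the sites at tRNA genes in YPGly (left) and YPD (right), plotted by distance in kb (log axis) from the nearest of the 4 centers on the same chromosome. Gray triangles are sites on other chromosomes, spread sideways at random, and the dashed line is the 25-kb limit. In YPD the 9 sites inside the limit have enrichments of 2.76 to 9.36 and the others at most 2.86. In YPGly the 9 lie within the range of the 49 of 191 others that had a call, and sites without a YPGly call are not drawn there.

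The flanking sites with the highest mean enrichments in YPGly lay upstream of genes. In the ISA1 neighbourhood, the site at -2743 bp (chrXII:84149-84417), centered -521 bp from the start codon of TPO1, which encodes a polyamine transporter, had enrichments of 20.9, 12.9 and 14 in YPGly, against 14, 9.67, 10.0 and 13.6 in YPD. The scores were 7335, 3622 and 6462 in YPGly, against 4452, 2285, 2617 and 2935 in YPD. The media overlapped by either measure. The site holds 19 CGG or CCG triplets in 250 bp, against a median of 6 over all sites, and 10 of them lie in the stretch printed above. Another site of the TPO1 promoter at -3119 bp was called in YPGly only, with 8.95, 5.10 and 5.10. A site at -1479 bp from the center, inside the TPO1 coding sequence, had 2.59, 2.54 and 2.67 in YPGly, against 2.29 and 3.12 in the 2 YPD lists that called it.

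On the other side of ISA1, the site at +1302 bp lay -295 bp from the start of HSP104, the disaggregase that dissolves protein aggregates. It had 5.72, 4.87 and 4.57 in YPGly, against 11.2, 9.0, 9.39 and 11.2 in YPD, with no overlap. Its scores were 1884, 1231 and 1915 in YPGly, against 3775, 2466, 2611 and 3365 in YPD. HSP104 had the highest mean enrichment of the ISA1 flanking sites on that side in either medium. SSA2, a cytosolic Hsp70 chaperone, had a promoter site at +10674 bp with 1.70, 1.41 and 1.49 in YPGly, against 2.73, 2.28, 2.22 and 2.78 in YPD, again without overlap.

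UBI4, the stress-inducible polyubiquitin gene, had a promoter site at -21453 bp with 2.10, 1.79 and 1.99 in YPGly, against 1.97, 1.77, 1.83 and 2.09 in YPD. These values overlapped. The site at -620 bp from the start of KNS1, a protein kinase gene, and +21493 bp from the center had 2.38, 2.11 and 2.21 in YPGly, against 1.63, 1.42, 1.41 and 1.65 in YPD, and every YPGly value was above every YPD value. Of 24 chaperone and ubiquitin genes listed, 8 (33.3%) had an assigned site in the genome, against 12.2% of all protein-coding genes, and 3 of the 8, UBI4, HSP104 and SSA2, lie in the ISA1 neighbourhood. This list too was chosen with these sites known.

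In the ACO1 neighbourhood the strongest YPGly sites lay far from the center. The site at -14380 bp, between YLR297W and ATP14, a gene for a subunit of the mitochondrial ATP synthase, had enrichments of 23.5, 14.6 and 16.2 in YPGly, against 7.58, 7.61, 6.34 and 9.64 in YPD. Its neighbour at -14945 bp, just upstream of the open reading frame YLR296W, had 11.4, 7.60 and 7.87 in YPGly, against 3.19, 3.15, 2.83 and 3.35 in YPD. The scores of the site at -14380 bp were 8659, 4707 and 8661 in YPGly, against 2680, 2061, 1916 and 2486 in YPD. At both sites every YPGly value was above every YPD value. The site at -14380 bp holds a CCGN5CGG match 2 bp from its center.

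EXG1, which encodes an exo-1,3-beta-glucanase of the cell wall, had a promoter site at -9539 bp with 5.23, 3.21 and 4.08 in YPGly, against 4.27, 3.66, 3.58 and 4.75 in YPD. The site between MRPL15, a mitochondrial ribosomal protein gene, and ATG39, an autophagy receptor gene, at +21339 bp had 2.21, 1.52 and 1.53 in YPGly, against 2.13, 1.75, 2.3 and 2.64 in YPD. The media overlapped at both. The site between CDA2, a chitin deacetylase gene, and DPA10 at +9733 bp was called in all YPGly lists with 4.92, 4.17 and 5.11 and in no YPD list, and the site within ECM38, at -10191 bp, likewise had 2.88, 1.85 and 1.91 in YPGly and no YPD call.

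Around IDH2, the highest mean enrichment of the sites with 3 calls was at -1844 bp from the center and -525 bp from the start of BAG7, where the mean score in YPD (264) was below those of the tRNA-Gly (976) and tRNA-Asp (853) genes. It had 5.00, 3.89 and 3.93 in YPGly, against 6.69, 3.58, 4.83 and 4.99 in YPD, and the media overlapped. The peaks of the media lay apart within this merged site, so its values compare different peaks. Those of YPGly were at -1787 to -1762 bp, and the main YPD peaks were at -2028 to -2009 bp. The 3.58 of YPD repeat 2 is the mean of its main peak (4.05) and a weaker one at -1645 bp (3.10). The site in the first part of RUP1, at +6278 bp, with a CCGN5CGG match, had 2.59, 2.18 and 1.96 in YPGly, against 3.29, 2.3, 2.72 and 3.09 in YPD. Its neighbour at +6624 bp, between RUP1 and SFL1, a repressor of flocculation genes, was called in YPGly only, with 2.31, 1.74 and 1.84, and had 1.88 and 2.18 in 2 YPD lists. SIA1 at +4308 bp was called in YPD only, with 2.37, 1.92, 1.75 and 2.23.

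The promoter between the histone H3 and H4 genes HHT2 and HHF2, at +16995 bp from IDH1, had 1.76, 1.28 and 1.39 in YPGly, against 1.87, 1.70 and 1.73 in the 3 YPD lists that called it. The HHF2 coding sequence beside it had a site in YPD only, with 2.39, 1.74 and 2.06 at peaks spread over +17428 to +17663 bp. Of 12 core histone and elongation factor genes, 5 (41.7%) had an assigned site in the genome, against 12.2% of all protein-coding genes. HHT2, HHF2 and EFT1 are 3 of the 5, and the list was chosen with their sites known, so the share is no result about these genes as a group.

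Coding sequences held mostly YPD sites. Of the 16 flanking sites centered in a coding sequence, 13 were YPD only, 2 YPGly only and 1 shared, against 53.8% YPD only among the 117 such sites of the genome. Their YPD means were 2.06 to 7.48 (median 2.85, 15 sites), and those of the other coding-sequence sites were 1.09 to 71.3 (median 2.18, 88 sites). The highest of the 15 was inside ACO1 itself, at -877 bp from its center, with 9.29, 5.20, 7.38 and 8.03 in YPD and no YPGly call.

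IDH1 and IDH2 had sites of the same kind within their own coding sequences. The IDH1 site at -1275 bp had 2.81 in a single YPGly list, against 5.61, 3.70, 3.73 and 4.95 in YPD. This merged site joins peaks at -1396 to -1383 bp and at -1195 to -1162 bp. The values of YPD repeats 1 and 4 are means over a peak of each group, and the other lists had a peak in 1 group only. The IDH2 site at +1402 bp had 5.28, 3.58 and 3.77 in 3 YPD lists and no YPGly call. At 800 to 950 bp from the center, a distance chosen after the values were seen, ACO1 had a peak in all 4 YPD lists (850 to 920 bp), ISA1 in 2 of them (875 and 893 bp), and IDH1 (900 bp) and IDH2 (848 bp) in 1 each, while no YPGly list had a peak there. ACO1 had no YPGly peak within 2 kb of its center.

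Away from the centers' own genes, EFT1, which encodes the translation elongation factor EF-2, held 3 YPD-only sites in its coding sequence at -4340, -2639 and -2417 bp from IDH2, and another lay just upstream of it at -4809 bp. The coding sites had YPD values of 1.96 to 5.11, and the upstream site had 2.37, 1.74 and 1.86. SSA2 held 3 YPD-only coding sites at +8604, +9583 and +10180 bp from ISA1, with YPD values of 1.71 to 2.75. The peaks of the last 2 were spread over +9484 to +9672 bp and +10029 to +10321 bp. GPI15 (-1668 bp from IDH1), a second site in ACO1 (-2564 bp) and EXG1 (-8439 bp from ACO1) held 1 each, and HRI1 had a YPD-only site just upstream of its start, at -7229 bp. The site at +4463 bp from ISA1 had no gene within the assignment range.

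The distance bin nearest the centers held the most peaks per kb in both media, and the order of the bins farther out was not the same in YPGly and YPD. At 0.5 to 2 kb there were 0.389 ± 0.048 peaks per kb in YPGly (SD, n = 3) and 0.771 ± 0.142 in YPD (SD, n = 4). At 2 to 5 kb the values were 0.139 in YPGly and 0.50 in YPD, and at 5 to 10 kb they were 0.183 in YPGly and 0.281 in YPD. At 10 to 15 kb they were 0.167 in YPGly and 0.175 in YPD, and at 15 to 20 kb they were 0.025 in YPGly and 0.075 in YPD. At 20 to 25 kb they were 0.075 in YPGly and 0.081 in YPD, against 0.031 to 0.043 per kb in the YPGly lists and 0.044 to 0.064 in the YPD lists over the whole genome.

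The order of the media close to the centers depended on the length of the lists. With every list held to the 373 peaks of highest score, the length of the shortest list, there were 0.361 peaks per kb in YPGly and 0.250 in YPD at 0.5 to 2 kb. Around the next 16 strongest sites, the same distances held 0.174 ± 0.032 peaks per kb in YPGly and 0.318 ± 0.057 in YPD at 0.5 to 2 kb, and 0.108 in YPGly and 0.151 in YPD at 2 to 5 kb. At 5 to 10 kb these fell to 0.008 in YPGly and 0.036 in YPD, below the values of 0.183 and 0.281 around the 4 strongest.

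**Figure D3:**
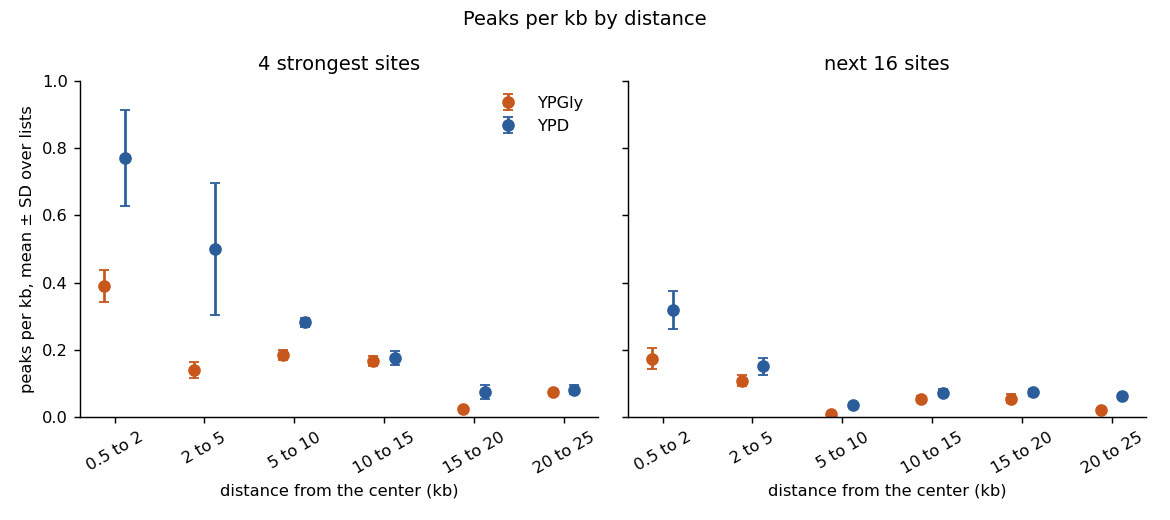
Peaks per kb (mean over the lists of a medium, bars are the SD) by distance in kb around the 4 strongest sites (left) and the next 16 (right), for YPGly (orange, 3 lists) and YPD (blue, 4 lists). Around the 4 strongest, YPGly is at 0.389 and YPD at 0.771 at 0.5 to 2 kb, and at 10 to 15 kb YPGly is at 0.167 and YPD at 0.175.

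Close to the centers, the 2 measures of peak height ranked the YPD peaks in different ways. A percent rank of 0 is the strongest peak of a list. At 0.5 to 2 kb, the median flanking peak stood at 48.4% by score and 35.4% by enrichment in YPGly (14 peaks), and at 71.9% by score and 8.46% by enrichment in YPD (37 peaks). At 2 to 5 kb the medians were 32.0% by score and 22.0% by enrichment in YPGly, and 65.0% and 18.2% in YPD. Beyond 10 kb they were 53.8% and 60.9% in YPGly and 20.0% and 27.5% in YPD, so that the measures lay closer to each other. The fold values of YPD peaks near the centers therefore stood high in their lists while their scores stood low, and the part of reads from the center in either measure was not tested.

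**Figure D4:**
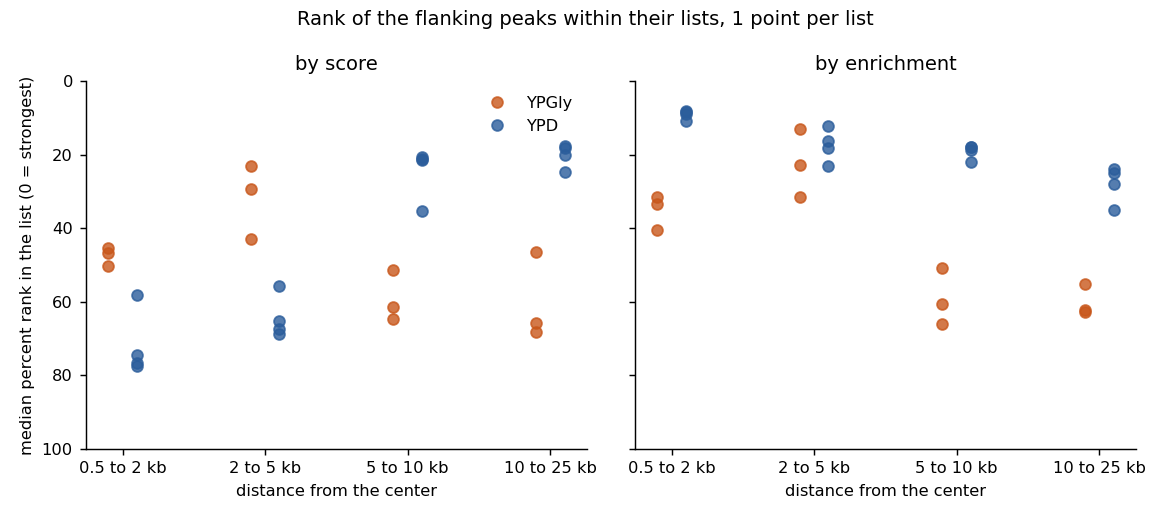
Median percent rank of the flanking peaks within each list by score (left) and by enrichment (right), in 4 bins of distance from the center, with 1 point for each list (YPGly orange, YPD blue) and the strongest peaks at the top. At 0.5 to 2 kb the YPD lists have medians of 58.1 to 77.4% by score and 8.21 to 11.0% by enrichment.

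Relative to the center of the same list, flanking peaks were small. The score of a flanking site had a median of 0.366 to 0.464% of the score of its center in the YPGly lists and 0.178 to 0.259% in the YPD lists. Each median is over the flanking sites called in that list, more of them in YPD, so the media are not compared at the same sites. The highest was 7.70% in YPGly, at YLR297W/ATP14, and 2.67% in YPD, at the same site. A ratio within a list needs no common scale between lists, and of the 18 flanking sites called in all 7 lists, 9 had lower ratios in every YPGly list than in every YPD list, 7 had higher ratios and 2 overlapped.

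The 9 lower ones were the 7 tRNA gene sites, HSP104 and SSA2. At the tRNA-Thr gene the ratios were 0.655, 0.922 and 0.828% in YPGly, against 2.08, 1.81, 1.92 and 1.66% in YPD. Over all 199 shared sites other than the centers, the shares with lower ratios in YPGly were 3.02% against the IDH1 center, 5.03% against ISA1, 6.03% against ACO1 and 11.6% against IDH2, and those with higher ratios were 93.5%, 78.4%, 72.9% and 62.3%. The 7 higher ones were TPO1, UBI4, KNS1, BAG7, EXG1 and the 2 sites near ATP14, with peaks at different positions in the 2 media at BAG7. With enrichment in place of the score, 7 were lower, 5 higher and 6 overlapped. Of the 199 shared sites, 4 to 10 had lower enrichment ratios in YPGly and 107 to 189 higher ones, depending on the center.

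The difference between the media was then tested in a single fit over the 203 sites called in all lists, with limma on log2 enrichment after centering each list on its median over these sites and Benjamini-Hochberg adjustment over the 203. In YPGly 15 of the 18 flanking sites were lower than in YPD, 2 were higher and 1 was not called at 0.05. Over all 203 sites, 52.7% were called lower and 29.1% higher. By rank of enrichment within a list, 15 of the 18 stood lower in every YPGly list than in every YPD list and 2 higher, against 35% and 31% of the 203 sites. The median difference was -1.23 over the 18 sites and -0.30 over the 203.

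The 7 tRNA gene sites had differences of -1.46 to -2.38 on this scale. The tRNA-Thr gene was lower by a log2 difference of -2.38 ± 0.12 (SE, limma, adjusted p = 1.2e-15) and the tRNA-Leu gene upstream of MET17 by -2.07 ± 0.10 (adjusted p = 8.1e-16). HSP104 was at -1.71 ± 0.09 (adjusted p = 5.2e-15) and SSA2 at -1.41 ± 0.09 (adjusted p = 4.4e-13). RUP1, MRPL15/ATG39, BAG7, EXG1 and UBI4 were at -0.67 to -1.04, and the BAG7 difference is between peaks at different positions. TPO1 was at -0.28 ± 0.10 (adjusted p = 0.014), a call lost without YPGly repeat 2 (-0.27) or repeat 3 (-0.22).

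The higher sites were YLR296W/ATP14, at 0.79 ± 0.09 (adjusted p = 1.8e-08), and YLR297W/ATP14, at 0.50 ± 0.10 (adjusted p = 9.9e-05), while KNS1 was at -0.15 ± 0.10 (adjusted p = 0.17). The other 13 tRNA gene sites among the 203 had a median difference of -0.94, with 11 called lower and 1 higher.

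How the lists were set to a common scale decided the direction at many sites, and the lists themselves do not fix it. On the enrichments as deposited, the median difference over the 203 sites was 0.40, with 105 called higher and 19 lower. With the lists set to a common mean at the 4 centers it was 0.97, with 83.3% called higher and 3.94%, or 8 sites, called lower. On that scale 7 of the 18 flanking sites were called lower and 6 higher, and on the deposited values 10 were lower and 3 higher.

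The 7 tRNA gene sites were lower in YPGly on each of the 3 scales, and the call was lost at SUF5 alone, at -0.18 on the scale of the centers. The 8 sites called lower on that scale were the other 6 tRNA gene sites, HSP104 and the IDH1 center, and none of the 181 shared sites outside the neighbourhoods and centers was among them. SSA2 stayed below 0 on each scale without a call on the last (-0.13). TPO1, KNS1, UBI4 and EXG1 were above 0 on the deposited values and on the scale of the centers, and BAG7, RUP1 and MRPL15/ATG39 were above 0 on the scale of the centers (0.23 to 0.37). The 2 sites near ATP14 were higher on each scale.

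**Figure D5:**
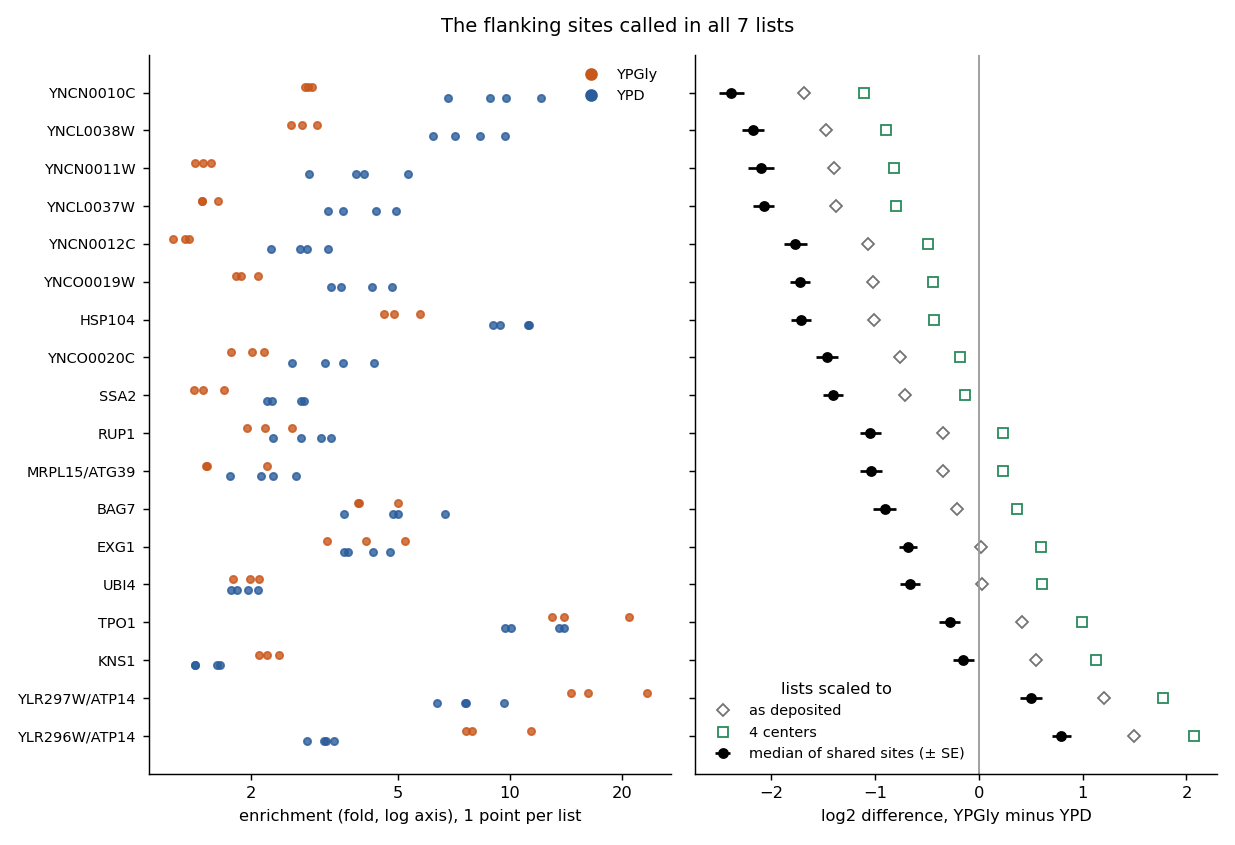
Left, enrichment (fold, log axis) of the 18 flanking sites called in all 7 lists, with 1 point for each YPGly list (orange) and YPD list (blue). Right, log2 difference of YPGly minus YPD with the lists scaled to the median of the 203 shared sites (black, bars are the SE from limma), as deposited (gray) and scaled to the 4 centers (green). The 7 tRNA gene sites and HSP104 are below 0 on each scale, from -2.38 to -0.18.

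Few flanking sites held the motif. CCGN5CGG, which is its own reverse complement, was searched in the 250 bp centered on each site. It was found at 3 of the 43 flanking sites (6.98%), against 61 of 645 sites (9.46%). It was also found at 3 of the 4 centers, with the ACO1 center as the exception in this window. The 3 sites are those printed above, and all 3 were called in both media. The share of C and G was 41.6% at the median flanking site and 42.0% over all sites, and the median number of CGG or CCG triplets was 5 against 6.

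The neighbourhoods were dense in assigned genes. A gene was assigned when a site's center lay within 2000 bp before or 200 bp after its start codon, and 34 of the 94 protein-coding genes that start in the neighbourhoods had an assigned site (36.2%), against 733 of 6008 (12.2%) in the genome. The flanking sites themselves were assigned to 32 genes, and 12 of the 43 sites (27.9%) had no gene in that range, against 9.92% of all sites.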

How the data were processed

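The authors called peaks in each Sef1-TAP ChIP library against its own input, after trimming and mapping (Trimmomatic 0.36 and Bowtie2 2.3.3 in the submitters' processing notes) to S288C release R64-2-1. The peak caller is not given in the sources used here. Each list comes from 1 repeat. It was deposited with, for each peak, a score, which is in the caller's own unit within 1 list, an E-value that is also a score and was not used, and an FDR, a q-value to which no further threshold was applied, which the deposited interval lists give as -log10. The fold ratio of ChIP over input was deposited as a maximum-likelihood estimate, used here as the enrichment, and as a lower bound. No value was normalized again except by the centering stated, and the 7 input libraries and the coverage of reads were not used.

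The 7 lists were merged at 1 bp of overlap, and several peaks of 1 list within a site were averaged. Locations follow the R64-5-1 annotation of the same assembly. The members, gene lists and comparisons were chosen with earlier results of these data known. The grouping by tRNA gene, GTTCNANNC, the distance of 800 to 950 bp and the identical copies were chosen after the values were seen. Every flanking site with 3 calls was to be named, with values per list for sites called in all lists, the 2 strongest of each neighbourhood in each medium and MET17. The fit used limma 3.58.1 (lmFit and eBayes with trend) in R 4.3.3, tested on simulated data, with a threshold of 0.05. Repeats are described by the study as biological. Tables and figures were made in Python 3.11.15 with matplotlib 3.10.9, scipy 1.17.1, pandas 2.3.3 and numpy 2.4.6. Alternatives covered the distance limits, the calls required, the merging, list length, scale, measure, motif window, gene range and each repeat left out.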

Additional observations from a re-analysis of the deposited data

How the results depend on the processing

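The lists give no read numbers, and a missing call in a short list is no absence of binding. With lists of equal length there were 170 flanking peaks, 28 sites and 6 YPD-only sites, and 0.25 peaks per kb at 0.5 to 2 kb in YPD. With calls in at least 2 repeats, 3 sites were YPGly only, and with calls in every repeat, 8 were YPD only. Leaving out each repeat gave 34 to 44 sites, 5 to 7 of them YPGly only and 10 to 20 YPD only. Under the other distance limits, an enrichment of at least 2 and reciprocal overlap, the number of sites stayed within 1.5 times the 43. Taking sites centered at most 50 bp from a tRNA gene, added after seeing the data, gave the count of 9 again.

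Of the 203 shared sites, 105 were higher and 19 lower in YPGly with no centering, and 169 and 8 when centered on the 4 centers, with 6 and 7 flanking sites. Ranks within lists gave 0 calls among the 203 and the 18 in an exact permutation test over 35 splits, whose smallest adjusted p was 0.0523. At an unadjusted p under 0.05, 52 were higher and 59 lower, of which 1 and 15 were flanking sites. Its smallest two-sided p was 0.0286, or 0.0571 by doubling the smaller tail. Centered on the 4 centers, UBI4 was at 0.61, TPO1 at 1.00, KNS1 at 1.13, EXG1 at 0.60, MRPL15/ATG39 at 0.24, BAG7 at 0.37, RUP1 at 0.23, and the ISA1, ACO1 and IDH2 centers at 0.0014, 0.14 and 0.35. With no centering, UBI4 was at 0.035, TPO1 at 0.42, KNS1 at 0.55 and EXG1 at 0.019. With the score, KNS1 was at 0.40 and BAG7 at 0.33. The lower bound of the enrichment changed no call at the 18 flanking sites and the centers. Leaving out each repeat gave 2 higher and 14 to 15 lower flanking sites.

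Deviations from the medium means had correlations of r = -0.33, -0.28 and -0.004 between same-numbered repeats of the media. Differently numbered repeats had -0.30 to 0.41. Deviations within so few lists must balance out, so these values cannot decide whether the number is a pairing. With a replicate block on repeats 1 to 3, 57 of the 203 were higher and 102 lower, 2 and 14 of them flanking sites, and TPO1 was at -0.25 without a call. The score relative to the center averaged 0.405% in YPGly and 0.220% in YPD over the list medians, and 1.23% and 1.11% with enrichment in its place. These medians cover different sites in each list. With 1 mismatch, CCGN5CGG was found at 51.2% of flanking sites, near the 50.7% of all 645 sites. With 500 bp upstream, 16 genes were assigned.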
